A study of Mus musculus with 6 samples.

Results

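The AP-1 transcription factor genes examined here were Jun, Junb, Jund, Fos, Fosb, Fosl1, Fosl2 and Atf3, 8 of the 21887 protein-coding genes placed on chromosomes in the gene table. They were taken as a named list, and DNA break peaks were assigned to them by position. A peak was counted for a gene when its summit, the base of highest enrichment, lay inside the gene body, within 1 kb of either end, or within 50 kb of the gene. Breaks had been mapped by BrITL, in which DNA ends of permeabilised cells are tagged with a biotinylated nucleotide, pulled down with streptavidin and sequenced. All 6 samples came from passage-immortalized mouse embryonic fibroblasts with the genotype ATR+/- that expressed Bcl-xL, so the vehicle controls were heterozygous for Atr and carried the survival protein too. Cells received DMSO vehicle for 18 h, or 1 µM ATR-45 inhibitor with 0.2 µM aphidicolin for 18 h. ATR is the kinase that protects stalled replication forks, and aphidicolin slows replicative DNA polymerases. Each condition comprised 2 pull-down samples and 1 input sample, but a single pooled peak list per condition was available. No value below therefore has a replicate error or a test of the treatment, and the labels do not say whether the 2 pull-downs came from separate cultures.

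AP-1 is a dimeric transcription factor built from basic leucine zipper (bZIP) proteins. Jun family proteins pair with one another or with Fos family proteins, Fos proteins need a Jun partner to bind DNA, and Atf3 joins the network as a stress-induced partner. Most of the genes are immediate early genes, which fibroblasts switch on within minutes of serum, growth factor or stress signals and whose transcripts are short-lived. Jund is the member usually expressed at a steady level in unstimulated cells.

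The vehicle list, called DMSO below, held 6444 peaks, and the list for the inhibitor with aphidicolin, called treated below, held 491. Each peak carries a fold enrichment, which is the authors' own value for pull-down over background at the summit, and folds are compared only within a list. DMSO folds had a median of 10.99 (range 2.80 to 33.8), and treated folds a median of 5.19 (range 2.07 to 14.2). The weakest DMSO peak had a −log10 q of 18.5 and the weakest treated peak one of 3.38, which means that the limits of the lists were unlike. The number of pull-down fragments over each summit was recovered from the deposited values, and every recovered peak in either list had at least 35. A gene without a listed peak may thus still have had ends. How peaks were kept was not given, so 35 fragments is not a known limit, and an unlisted gene may have had fewer or more.

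The DNA just upstream of several AP-1 genes lay inside DMSO peaks. Of the 7 members with a promoter window in the RefSeq table, 6 had the 250 bases before the start annotated there wholly inside a DMSO peak (Jun, Junb, Jund, Fosb, Fosl2 and Atf3), and Fos had none of its bases inside one. For Fosb the start of the promoter table lies inside the gene body of the gene table, so 73 of its 250 bases are in the gene, and distances below are from the end of the gene body. Among all 32851 promoter windows of the table, 16.2% lay wholly inside a DMSO peak. The windows of the 4 members whose DMSO summit fell within 1 kb of an end are given together with that of Fos, the contrast without a peak. They are read 5′ to 3′ along the gene from RefSeq build GRCm38.p6, with matches to the searched motifs in capitals.
Jun (chr4:95052223-95052472, - strand): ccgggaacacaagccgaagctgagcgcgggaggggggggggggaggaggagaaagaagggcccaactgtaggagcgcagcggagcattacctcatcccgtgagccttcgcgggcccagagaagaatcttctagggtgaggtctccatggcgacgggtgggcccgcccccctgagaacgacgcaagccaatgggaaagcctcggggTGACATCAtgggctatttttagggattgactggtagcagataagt
Junb (chr8:84978749-84978998, - strand): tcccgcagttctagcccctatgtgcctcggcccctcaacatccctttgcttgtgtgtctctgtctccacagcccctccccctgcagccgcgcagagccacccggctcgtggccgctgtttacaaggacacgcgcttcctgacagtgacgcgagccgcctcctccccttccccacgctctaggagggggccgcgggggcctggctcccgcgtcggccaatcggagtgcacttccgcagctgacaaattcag
Fosl2 (chr5:32136222-32136471, + strand): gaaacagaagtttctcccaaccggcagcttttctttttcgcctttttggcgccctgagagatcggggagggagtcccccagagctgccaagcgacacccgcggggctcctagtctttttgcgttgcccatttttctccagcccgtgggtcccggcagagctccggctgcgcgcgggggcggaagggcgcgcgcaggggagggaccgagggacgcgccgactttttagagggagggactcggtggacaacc
Atf3 (chr1:191183334-191183583, - strand): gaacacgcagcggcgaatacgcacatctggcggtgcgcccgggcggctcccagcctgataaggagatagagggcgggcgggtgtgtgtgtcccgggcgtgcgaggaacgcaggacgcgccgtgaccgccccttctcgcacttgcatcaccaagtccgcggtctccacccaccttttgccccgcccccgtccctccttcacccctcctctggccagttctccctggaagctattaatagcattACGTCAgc
Fos (chr12:85473640-85473889, + strand): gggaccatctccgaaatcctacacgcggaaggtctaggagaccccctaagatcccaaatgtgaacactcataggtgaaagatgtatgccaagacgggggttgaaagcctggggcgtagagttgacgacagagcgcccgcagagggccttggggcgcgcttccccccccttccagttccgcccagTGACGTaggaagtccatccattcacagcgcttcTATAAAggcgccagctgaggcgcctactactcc

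The motifs searched, on both strands, were the AP-1 site TGANTCA, the cyclic AMP response core TGACGT (which also lies within the longer palindromic site of that name), the element TGACATCA through which Jun is known to act on its own promoter, the TATA box TATAAA, and the CArG box bound by serum response factor. Jun held TGACATCA from 45 to 38 bases before its start, a motif present in 2.93% of all windows. In the Fos window TGACGT lay from 66 to 61 bases and TATAAA from 33 to 28 bases before the start, motifs present in 6.47% and 12.4% of windows. Atf3 held the core on the other strand, 8 to 3 bases before its start. No match to TGANTCA (6.75% of windows) or the CArG box (1.47%) was found in the window of any of the 7 members. The Junb, Jund, Fosb and Fosl2 windows held none of the 5 motifs. The motif-bearing windows thus included Jun and Atf3, inside DMSO peaks, and Fos, outside them. DNA further upstream than the windows was not searched, so a member, Fos included, may hold any of these motifs there. GC content was 61.2% for Jun, 66.4% for Junb, 64.4% for Fosl2, 65.2% for Atf3, 68.8% for Fosb, 58.4% for Fos and 47.6% for Jund. The median was 52.4% over all windows and 63.6% over windows inside a DMSO peak, and its part in the results was not tested.

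In vehicle-treated cells, 6 of the 8 AP-1 genes had a DMSO summit inside the body or within 1 kb of an end, against 23.8% of all protein-coding genes. Inside the body lay summits at 3 members (Jun, Jund and Fosb), against 13.2% of genes. Within 1 kb of an end lay summits at 4 members (Jun, Junb, Fosl2 and Atf3), against 19.5% of genes. All 8 members had a DMSO summit within 50 kb, against 45.8% of genes. In the treated list, 2 members, Jund and Fosl2, had a summit inside or within 1 kb, against 1.16% of genes. Of these only Jund had it inside the body (0.758% of genes), both had one within 1 kb of an end (0.685% of genes), and the same 2 members made up those with a treated summit within 50 kb (4.28% of genes). The members are short, the longest being Fosl2 at 21369 bp. Among the 12243 protein-coding genes no longer than that, 19.4% had a DMSO summit inside or within 1 kb, and 0.833% a treated one.

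**Figure D1:**
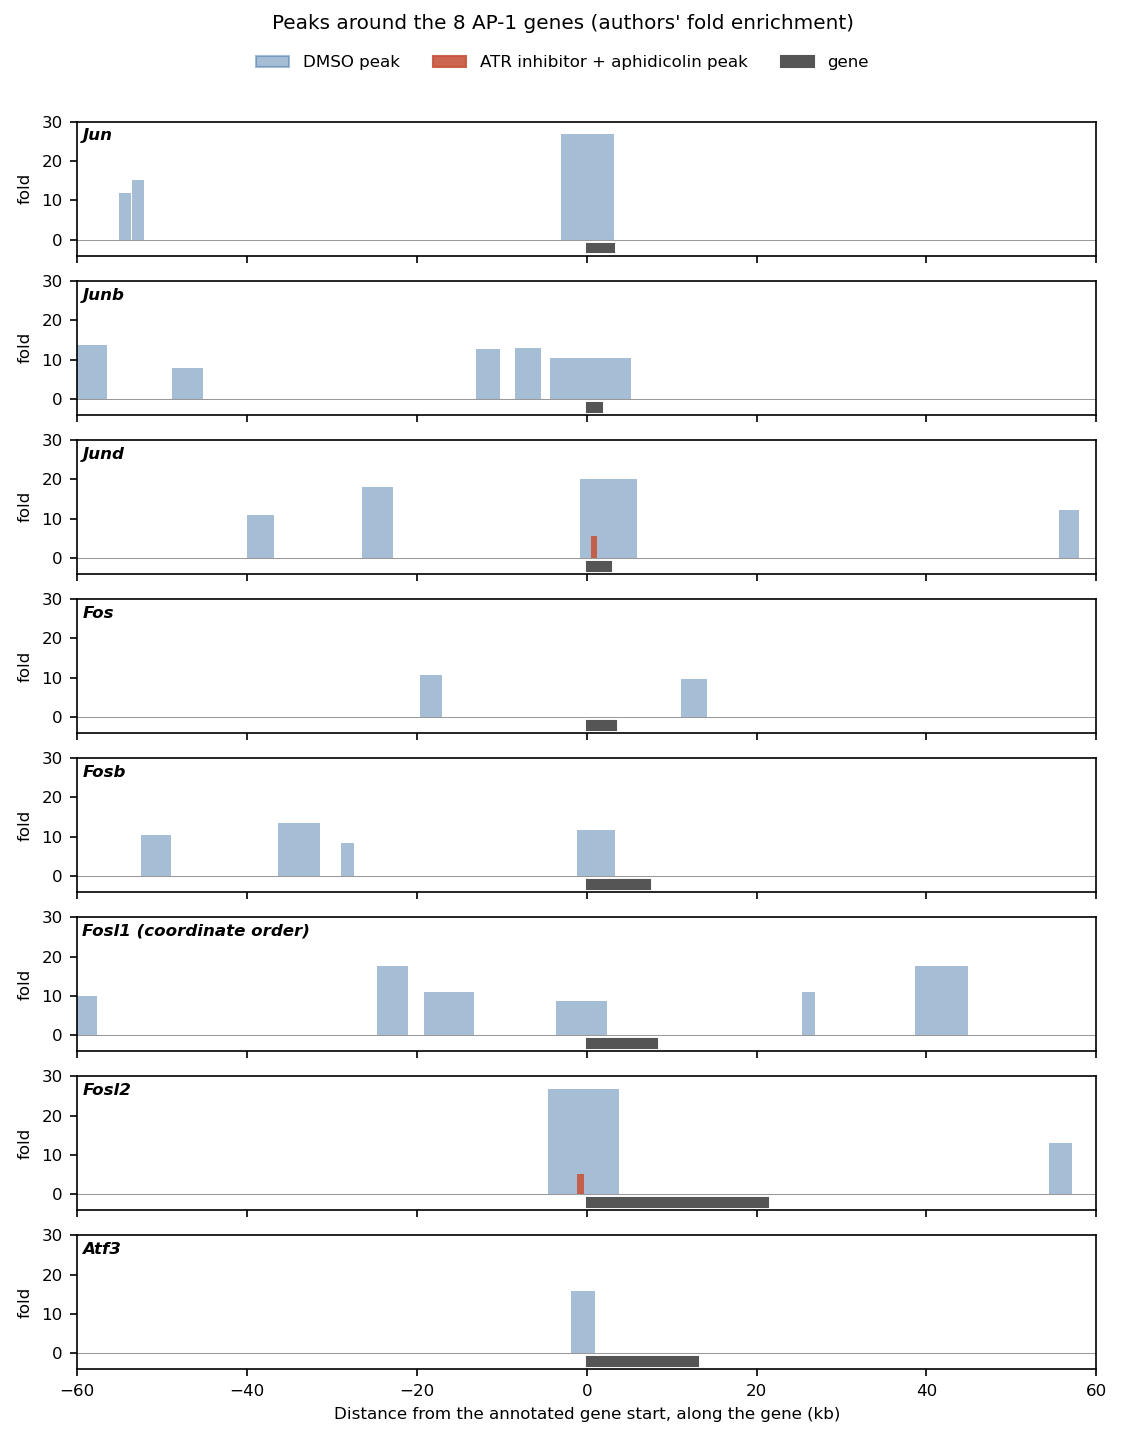
Peaks of both lists around each AP-1 gene, drawn by distance from the annotated gene start in kb (x axis) and with height equal to the authors' fold (y axis). DMSO peaks (blue) stood at or over every gene except Fos, whose nearest peaks lay to either side, and treated peaks (red) appeared at Jund and Fosl2 only. Fosl1 is drawn in coordinate order.

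Jun, the founding AP-1 subunit and the main target of Jun N-terminal kinase, shared with Fosl2 the highest fold of the group. Jun (gene 16476) lies on chromosome 4 from 95049036 to 95052222, on the minus strand. A single DMSO peak from 95049075 to 95055260, 6186 bp wide, covered 98.8% of the gene and ran upstream of it. Its summit lay 14 bp inside the annotated start. The fold was 26.8, rank 14 of 6444, with a −log10 q of 96.9. The summit held 109 fragments (exact Poisson 95% interval 89.5 to 131, which here and below covers counting error only), over a background of 2.88 fragments, the genome-wide level of that list. The treated list held no peak within 100 kb of Jun. Of the 16 DMSO peaks with a fold at least that of Jun, 13 overlapped a treated peak and 3, Jun among them, did not. No other protein-coding gene lay within 50 kb of Jun.

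Junb, a Jun family member that can oppose Jun at some promoters, had the widest peak of the group but a middling fold. Junb (gene 16477) spans 84976909 to 84978748 on chromosome 8, minus strand. The DMSO peak over it was 9490 bp wide, rank 35 by width in the list, and covered the whole gene. Its summit lay 702 bp upstream of the start. The fold was 10.5, rank 3905, although the summit held 77 fragments (interval 60.8 to 96.2). The background term there was 6.21 fragments, 2.16 times the genome-wide level, whereas at Jun, Jund, Fosb, Fosl2 and Atf3 it was 1.00 times. Junb thus ranked low by fold with a summit of nearly the same fragment number as Jund, and the −log10 q of 41.5 was above the list median of 28.5. No treated peak lay within 50 kb.

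Jund, the steadily expressed Jun protein, was a member with peaks in both lists. Jund (gene 16478) spans 70697739 to 70700616 on chromosome 8, plus strand. The DMSO peak was 6716 bp wide and covered the whole gene, with a summit 1712 bp downstream of the start. Its fold was 19.98 (rank 173, −log10 q 64.9), with 81 fragments at the summit (interval 64.3 to 101). The treated peak, from 70698218 to 70698947, lay within the DMSO peak and inside the gene. Its summit was 982 bp downstream of the start and 730 bp from the DMSO summit. Its fold was 5.70, rank 122 of 491 in the treated list, with a −log10 q of 5.20. The treated summit held 40 fragments (interval 28.6 to 54.5) over a background of 5.14, the genome-wide level of the treated list. Among the 183 DMSO peaks with a fold at least that of Jund, 76 (41.5%) overlapped a treated peak.

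Fos, the prototype immediate early gene, was the member without any peak over it. Fos (gene 14281) spans 85473890 to 85477274 on chromosome 12, plus strand, with no other protein-coding gene within 50 kb. The DMSO peaks nearest to it had summits 19.03 kb upstream of the start and 9.05 kb downstream of the far end. Their folds were 10.7 and 9.77, both below the list median, with 43 (interval 31.1 to 57.9) and 39 fragments (interval 27.7 to 53.3). The treated list had no peak within 100 kb of Fos.

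Fosb, whose shorter splice product accumulates under repeated stimulation in neurons, had a peak inside the gene. Fosb (gene 14282) spans 19302696 to 19310118 on chromosome 7, minus strand. The DMSO peak was 4379 bp wide, covered 44.1% of the gene including its start, and had its summit 1821 bp downstream of the start. The fold was 11.7 (rank 2580), with 47 fragments (interval 34.5 to 62.5), close to the list medians of 10.99 and 49. No treated summit lay within 50 kb.

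Fosl1, which encodes Fra-1 and is often raised in transformed and migrating cells, was overlapped by a peak whose summit lay outside it. Fosl1 (gene 14283) spans 5447698 to 5455938 on chromosome 19. The DMSO peak from 5444014 to 5450115 covered 29.3% of the gene at its lower-coordinate end, and its summit lay 2.62 kb outside that end. The fold of 8.77, rank 5544, was the lowest among peaks touching a member. It had 43 fragments (interval 31.1 to 57.9) over a background 1.32 times the genome-wide level. No treated peak lay within 100 kb of Fosl1.

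Fosl2, which encodes Fra-2, resembled Jun in the DMSO list and Jund in having a treated peak. Fosl2 (gene 14284) spans 32136472 to 32157840 on chromosome 5, plus strand, and no other protein-coding gene lay within 50 kb. Its DMSO peak was 8350 bp wide, rank 51 by width, and had its summit 685 bp upstream of the start. The fold of 26.8 and the 109 fragments (interval 89.5 to 131) were those of Jun. As the gene is long for the group, the peak covered 17.9% of it. The treated peak lay within the DMSO peak from 32135315 to 32136112, wholly upstream of the gene, with its summit 454 bp before the start and 231 bp from the DMSO summit. Its fold was 5.03 (rank 296), and its −log10 q of 3.72 was near the lowest of the treated list. Its 35 fragments (interval 24.4 to 48.7) were the lowest number in that list. A further DMSO peak lay 34.1 kb past the far end of the gene, with a fold of 12.98.

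Atf3, a stress-response gene and a known target of p53, had the narrowest DMSO peak of those with a summit at a member. Atf3 (gene 11910) spans 191170296 to 191183333 on chromosome 1, minus strand. The peak was 2911 bp wide, near the list median of 2855 bp, and covered 7.78% of the gene around its start. Its summit lay 250 bp upstream of the start. The fold was 15.8, rank 758, with a −log10 q of 45.9 and 64 fragments (interval 49.3 to 81.7). It was also the sole peak of either list within 50 kb, where 1 other protein-coding gene, Fam71a, lay.

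**Figure D2:**
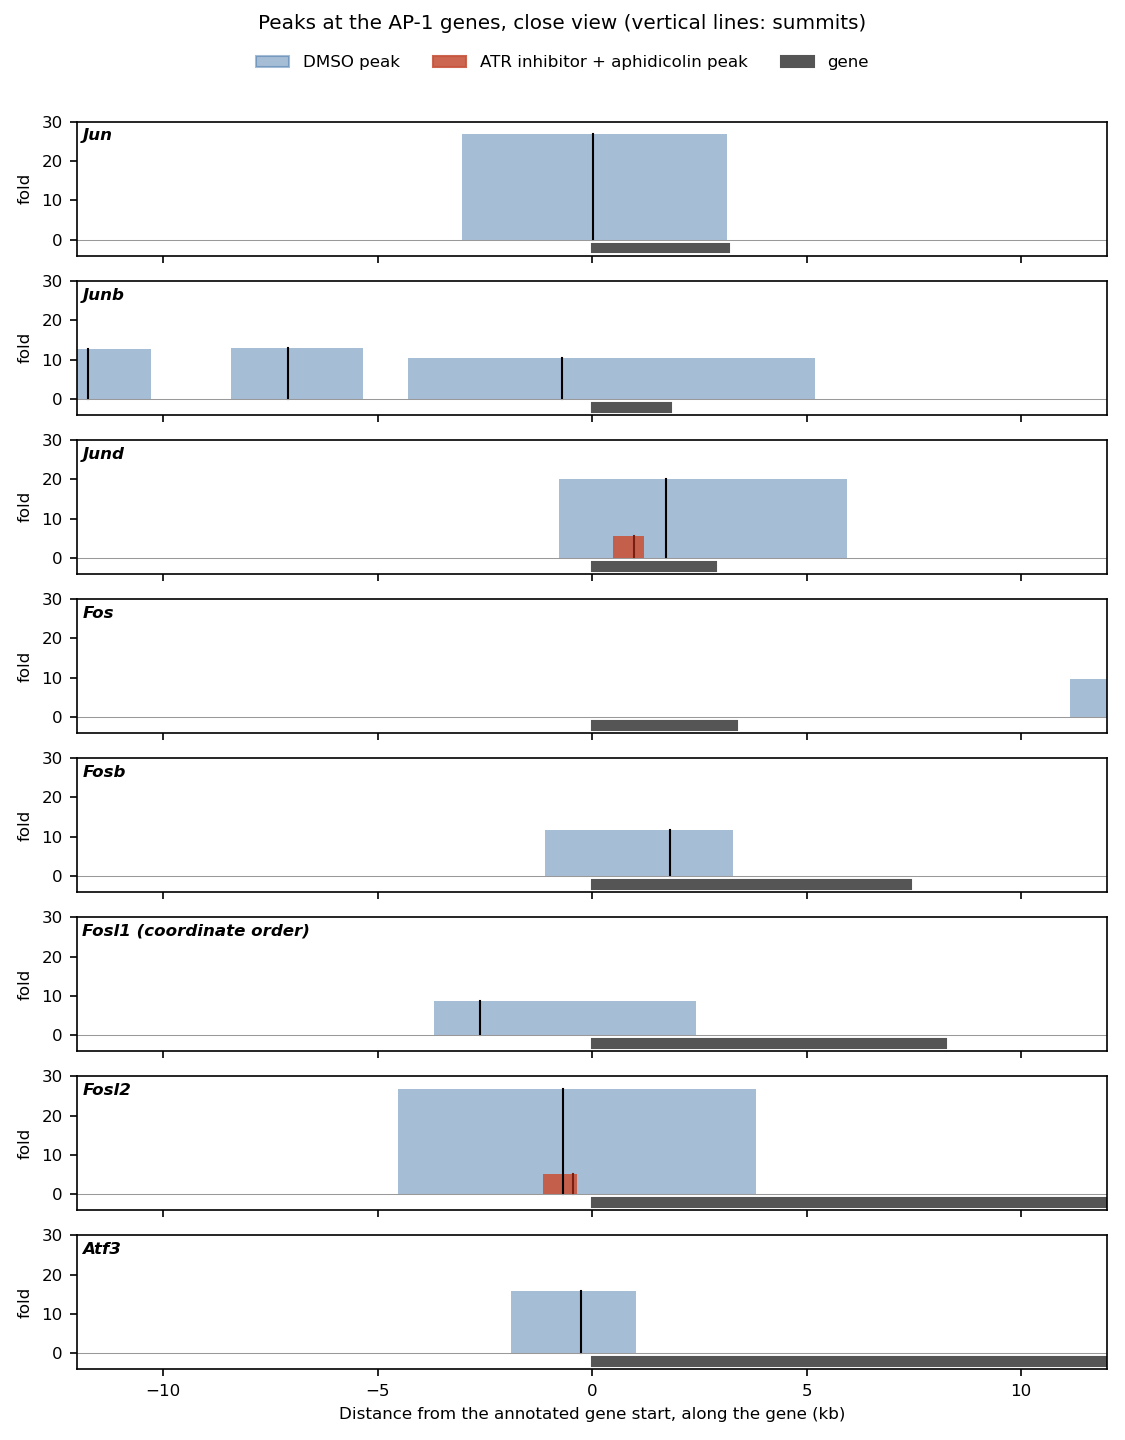
Close view of the same peaks, with the x axis in kb from the annotated gene start and the y axis in fold. Vertical lines mark summits. DMSO summits lay between 702 bp upstream (Junb) and 1821 bp downstream (Fosb) of the start in the 6 genes with a summit inside or within 1 kb, and both treated peaks lay within the DMSO peak of their gene.

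The order by DMSO fold was Jun and Fosl2, Jund, Atf3, Fosb, Junb and Fosl1. By fragments at the summit, the counting intervals of Jun and Fosl2 overlapped those of Jund and Junb but not that of Atf3 or of Fosb. The intervals of Atf3 and Fosb overlapped. Among neighbours in the order by fold, the intervals of Junb and Fosl1 did not overlap and those of the others did, which does not show that these were alike. Counting intervals say nothing of the spread between the 2 pooled pull-downs.

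**Figure D3:**
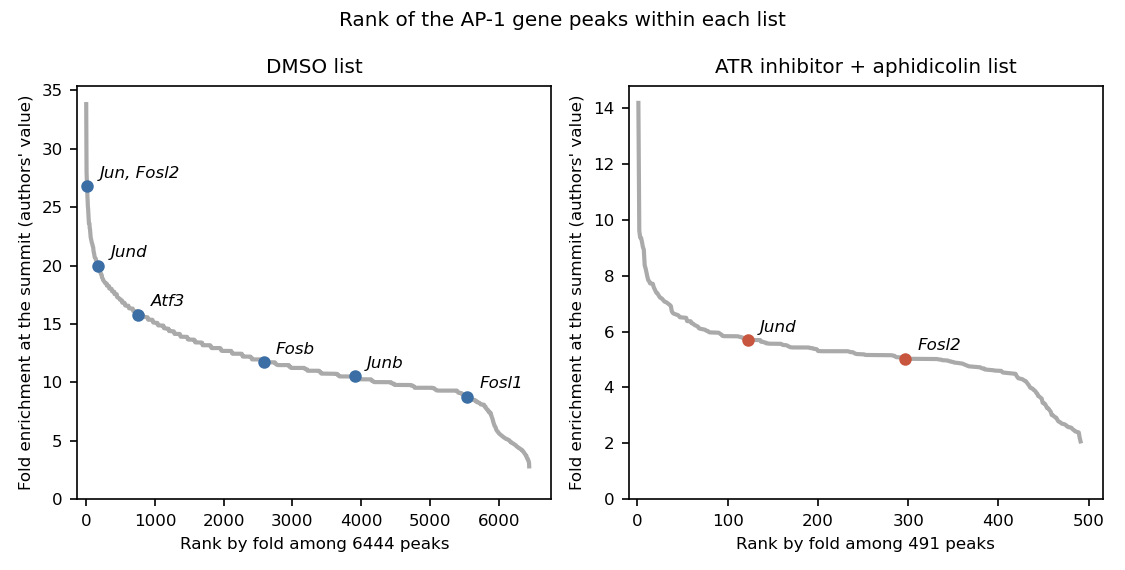
Fold enrichment (y axis) against rank by fold (x axis) for all peaks of the DMSO list (left) and the treated list (right), with the peaks at AP-1 genes as points. Jun and Fosl2 both sit at rank 14 of 6444, Fosl1 at rank 5544, and the treated peaks of Jund and Fosl2 at ranks 122 and 296 of 491.

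Where the peaks fell along the genes was mostly at the start. In 5 of the 6 members with a DMSO summit inside or within 1 kb (Jun, Junb, Fosb, Fosl2 and Atf3), the summit was nearer the start than the far end. In Jund, whose body is 2878 bp long, it was nearer the far end, 1165 bp away. Over the 4302 protein-coding genes with such a summit and a strand in the promoter table, 90.9% had the highest one nearer the start. The position in the members was therefore that of most genes with a DMSO peak. The DMSO peaks of Jun, Junb and Jund spanned nearly whole genes. These 3 members had at least 90% of the body under DMSO peaks, against 0.717% of all protein-coding genes and 1.28% of those no longer than 21369 bp. Jun, Junb and Jund are 3187, 1840 and 2878 bp long, and the median DMSO peak was 2855 bp wide. The share among genes as short as these was not computed, so the part of gene length was not tested.

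Peaks further out belonged in part to neighbours. Within 50 kb of the members lay 21 DMSO peaks, of which 6 had the summit inside or within 1 kb of the member and 6 lay within 1 kb of an end of another protein-coding gene. Beside Jund these were at Lsm4, an RNA-processing gene (fold 18.03, summit 13 bp from its end), and at Pgpep1, a peptidase gene (10.99). Beside Fosl1 they were at Drap1, a transcriptional corepressor gene (17.5), at Mus81, which encodes a nuclease that cleaves stalled replication forks (17.5), and at Efemp2, an elastic fibre gene (10.99). Beside Junb lay a peak at Get3, a membrane protein targeting gene (7.77). The remaining 9 peaks were over 1 kb from any protein-coding gene end. They included a peak of fold 12.9 lying 2.94 kb outside Hook2 and another of 12.7 inside that gene near Junb. Near Fosb, peaks of 8.30 and 13.4 lay 5.38 kb outside and 1.28 kb inside Ercc1, a nucleotide excision repair gene, and near Fosl1 a peak of 10.9 lay 2.95 kb from AI837181. The count of other protein-coding genes within 50 kb was 11 for Fosl1, 8 for Junb, 7 for Fosb, 5 for Jund, 1 for Atf3 and 0 for Jun, Fos and Fosl2. For 10 of the 21 DMSO peaks the nearest protein-coding gene end was the member's own, and for the other 11 it was a neighbour's. These 10 included the 6 with the summit inside or within 1 kb of the member. They lay at all 8 members, but Jun, Fos and Fosl2 had no protein-coding neighbour within 50 kb. The share of all protein-coding genes with such a peak was not computed, so this count has no background beside it.

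Of the 21 DMSO peaks within 50 kb of a member, 2 overlapped a treated peak by at least 1 bp, those at Jund and Fosl2, against 2.90% of the whole DMSO list. In the list as a whole that share was 15.2% among peaks with a fold at least that of Atf3. It was 41.5% among those at least as high as Jund and 81.2% (13 of 16) among those at least as high as Fosl2. The overlaps at Jund and Fosl2 have to be read beside these shares.

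The genes closest to Jun and Fosl2 in DMSO fold within 1 kb of an end came from unrelated families. Among the 4272 protein-coding genes with such a summit, Jun and Fosl2 tied at rank 13 with Sirt4, a mitochondrial sirtuin gene. Next above, in a tie of 5 genes at 27.3, were Rnf5, a ubiquitin ligase gene, and Ubxn6, and next below, at 26.3, were Rab40c and Tubb4b, a tubulin gene. The likeness was measured over 1 list only.

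Other genes of the AP-1 network also carried DMSO peaks. Of 12 other bZIP partner genes, 7 had a DMSO summit inside or within 1 kb (58.3%, against 23.8% of all protein-coding genes), and 8 had one within 50 kb (66.7%, against 45.8%). The highest within 1 kb were at Atf2 and Atf4 (both fold 18.3) and Atf7 (13.7), which encode partners or relatives of Jun. Of the 12, 1 gene, Atf2, also had a treated summit inside or within 1 kb, against 1.16% of all protein-coding genes. Its fold of 5.03 was below the treated median of 5.19 and the same as that of the weak treated peak at Fosl2. Of 16 upstream kinases and factors, 11 had a DMSO summit inside or within 1 kb. The highest within 1 kb were at Mrtfa (17.1), an actin-regulated partner of serum response factor, and at Mapk8 and Mapk9 (both 11.96), which encode Jun N-terminal kinases. Of 18 genes known as AP-1 targets, 7 had such a summit, led within 1 kb by Vim (23.1), the intermediate filament gene of fibroblasts, Vegfa (14.6) and Cd44 (13.8). Among 8 negative regulators of the pathway, 5 had one, led by the phosphatase genes Dusp1 (20.2), Dusp6 (15.8) and Dusp10 (15.4), which switch off mitogen-activated kinases. Treated summits inside or within 50 kb were listed for 0 of the upstream genes, targets and negative regulators. As 1.16% of all protein-coding genes had one inside or within 1 kb and 4.28% within 50 kb, a count of 0 in lists of this size is near the background. For DMSO summits inside or within 1 kb, against 23.8% of all protein-coding genes, these lists ranged from 38.9% (targets) to 68.8% (upstream genes), and the AP-1 genes stood at 75%. As lists of 8 to 18 genes, their order is a description.

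**Figure D4:**
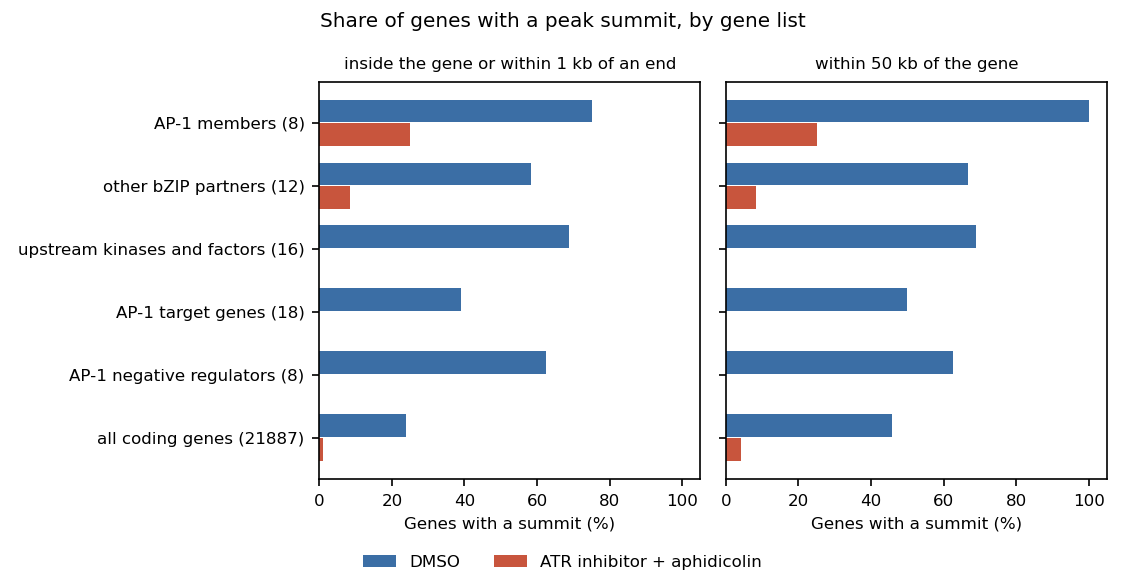
Percent of genes (x axis) with a summit inside the gene or within 1 kb of an end (left) or within 50 kb (right), for each gene list with its number of genes and for all protein-coding genes, in the DMSO (blue) and treated (red) lists. The AP-1 genes stood at 75% and 100% (DMSO) and at 25% in both panels (treated), against 23.8%, 45.8%, 1.16% and 4.28% of all protein-coding genes.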

How the data were processed

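BrITL pull-downs and inputs of both conditions were deposited as 1 pooled peak list per condition, since by their names the peaks compare all pull-downs of a condition with all its inputs. The submitters' processing notes name MACS2 2.1.0, STAR 2.5.2a, Picard 1.141, SAMtools 0.1.19, bcl2fastq 2.17.1.14 and the build mm10. What each was used for, the settings and how peaks were kept were not given in the sources used here. For every peak the authors' caller gave a fold ratio, −log10 p, −log10 q and a score, which equals the whole part of 10 times −log10 p in 100% of peaks. The deposited score was not otherwise used.

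Gene positions came from RefSeq GRCm38.p6, the assembly of mm10, on 21 chromosomes, and strand and promoter sequence from the RefSeq promoter table. Summits were assigned to genes with pandas 2.3.3 and NumPy 2.4.6 in Python 3.11.15, intervals computed with SciPy 1.17.1 and figures drawn with Matplotlib 3.10.9. Fragment numbers were recovered by inverting the caller's fold and Poisson formulas. A value was accepted within 0.02 of a whole fragment, which gave 1 solution for 97.6% of treated peaks and all but 1 DMSO peak. The background term is never below the list's genome-wide level, so it does not measure input directly. Both steps were tested on simulated data. The fragment recovery was simulated with settings near those of the DMSO list only, so it was not tested for the treated list. No test was made, since lists have no replicates. Members and gene lists were chosen with earlier results of these data known. Genes were named by rule: every member, the nearest protein-coding gene of each peak within 50 kb, up to 3 genes per list by DMSO fold within 1 kb and any with a treated summit there, and the 2 genes next above and below the top member in fold. Promoter motifs and the 90% coverage limit were chosen after the sequences and peaks were seen. Peak strength, distance limits and overlap rules were varied.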

Additional observations from a re-analysis of the deposited data

How the results depend on the processing

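No paired analysis was possible because each condition has 1 pooled list, with no value per replicate, and for the same reason no replicate could be left out. The counts rest on few genes, so they moved with the position rule. Counting a gene when any base of a peak touched it raised the members with a DMSO peak from 3 to 7 (inside the body) and from 4 to 7 (within 1 kb of an end), that is, all members but Fos. With 500 bp in place of 1 kb, 2 members had a DMSO summit and 1 had a treated summit at an end. Shares of all protein-coding genes under the altered rules here and below were not computed, so these counts have no background beside them. Among treated peaks at or above the median fold, or with −log10 q of at least 5, 1 member, Jund, had a treated summit within 1 kb and within 50 kb. With the latter limit 1 DMSO peak near a member overlapped a treated peak. The treated result at Fosl2 thus rests on a peak near the limit of its list. The other 20 counts stayed within 1.5 times the reported value. An absence from a list does not show an absence of ends. Recovered peaks had at least 35 fragments, and how peaks were kept was not given.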

Other observations

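Beyond 50 kb, DMSO peaks lay in the non-coding gene Junos, which extends from beside Jun. Their summits were 53.4 and 53.8 kb upstream of Jun, with folds of 15.2 and 11.9 and with 62 and 58 fragments. Near Fosb, a treated peak lay 74.1 kb beyond the far end of the gene, 219 bp from an end of Opa3, a mitochondrial inner membrane gene. Its fold was 5.43 with 38 fragments, and the DMSO peak it overlapped had a fold of 19.2. These values were chosen after they were seen.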
